A study of Mus musculus with 12 samples.

Results

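The myosin light chain kinase family of the mouse comprises 4 genes, *Mylk*, *Mylk2*, *Mylk3* and *Mylk4*. They were found by Gene ID in a table of RNA-seq counts for 27179 genes, which held all 4. The counts came from 12 tibialis anterior (TA) muscles, fast-twitch muscles of the lower leg, of 6 wild-type male C57BL/6N mice that were obtained at 6 to 8 weeks of age and studied within 2 weeks of arrival. Each mouse carried empty pcDNA3 plasmid in 1 TA (Control muscles, n = 6) and, in the opposite TA, the same amount, 10 μg, of plasmid that expresses full-length human *FRAIL1*, a long noncoding RNA, from the cytomegalovirus promoter (*FRAIL1* muscles, n = 6). Hyaluronidase injection and electroporation were shared by both groups, and the muscles were taken after 7 days. Fibers take up plasmid unequally, and RNA was prepared from muscle tissue, not from single fibers.

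Myosin light chain kinases are switched on by calcium-loaded calmodulin and phosphorylate the regulatory light chain at the neck of the myosin head, and myosin phosphatase removes that phosphate. *Mylk2* encodes the skeletal muscle kinase, which raises the force of fast fibers after repeated contraction. *Mylk* encodes the kinase that starts contraction of smooth muscle and serves motility and barrier function in non-muscle cells such as endothelium. *Mylk3* encodes the cardiac kinase, and *Mylk4* a less studied relative found in striated muscle.

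The 3 members with a measurable level, *Mylk*, *Mylk2* and *Mylk4*, had lower means in *FRAIL1* than in Control muscles, and for each of them 6 of 6 mice had the lower value on the *FRAIL1* side. The log2 fold change was -0.67 for *Mylk4*, -0.31 for *Mylk2* and -0.24 for *Mylk*. Of the 3 tested, 0 passed a threshold of 0.05 on the adjusted p in the quasi-likelihood test of edgeR, and 2 had an unadjusted p under 0.05. Without a block, *Mylk4* alone passed in DESeq2 and in limma voom. Of all 15502 genes tested, 4297 had an unadjusted p under 0.05 in edgeR, 2232 passed in DESeq2 and 1836 in voom. These totals are also the background for the counts of the gene lists below. In the edgeR test 6.28% of the 15502 genes tested were called, 4.43% higher and 1.85% lower. With the mouse as a block in that test *Mylk* and *Mylk2* were called lower, against 14.1% of all genes called, 7.48% higher and 6.62% lower. DESeq2 with the block called all 3 lower (adjusted p = 0.0120 for *Mylk*, 0.00480 for *Mylk2* and 0.00183 for *Mylk4*), and 2898 of the 15502 genes. *Mylk3* was near 0 in every muscle and was not tested.

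Library totals were 45018389 to 59309210 counts for Control and 44848322 to 60527385 counts for *FRAIL1* muscles. *FRAIL1* muscle 5 stood apart, at 59.5 on the first principal component (32.4% of the variance), where the next *FRAIL1* muscle was at 25.8 and no Control muscle was above -11.04, so results on the family are also given without it. The fast heavy chain *Myh4* measured 45865 ± 4064 CPM in Control muscles (counts per 1000000 with TMM-scaled library sizes, mean ± SD, n = 6) and the slow heavy chain *Myh7* 3.21 ± 1.18 CPM. The atrial light chain *Myl7* was at 0 in every muscle.

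For *Mylk4*, the member with the largest fold change, and for *Mylk*, 1 annotated start each is shown (RefSeq, GRCm38.p6). They compare a striated muscle member with the smooth muscle and non-muscle one. Both starts lie inside the gene positions given below, not at their 5′ ends, and other starts of these 2 genes were not searched. Each window is 300 bases read 5′ to 3′ on the gene's strand, with 250 bases before the annotated start. Capitals mark matches to the E-box (CANNTG), which binds myogenic bHLH factors, and to the MEF2 site. The CArG box, bound by serum response factor, and the TATA box (TATAAA) were searched too, on both strands.
Mylk4, chr13:32783915-32784214, minus strand: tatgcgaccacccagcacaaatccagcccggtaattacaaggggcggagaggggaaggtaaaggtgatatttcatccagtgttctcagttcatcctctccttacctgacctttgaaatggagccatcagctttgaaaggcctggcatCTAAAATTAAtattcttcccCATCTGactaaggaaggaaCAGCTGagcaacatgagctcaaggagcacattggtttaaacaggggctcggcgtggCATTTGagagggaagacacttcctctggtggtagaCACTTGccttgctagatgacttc
Mylk, chr16:34784700-34784999, plus strand: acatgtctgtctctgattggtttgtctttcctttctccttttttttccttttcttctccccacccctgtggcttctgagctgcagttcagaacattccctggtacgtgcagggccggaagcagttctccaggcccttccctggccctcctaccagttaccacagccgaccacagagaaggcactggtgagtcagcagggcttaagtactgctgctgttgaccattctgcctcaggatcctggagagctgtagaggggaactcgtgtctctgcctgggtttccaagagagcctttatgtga
The *Mylk4* window held 4 E-boxes and 1 MEF2 site, CTAAAATTAA, which begins 103 bases before the start, and no 2 of these overlapped. The *Mylk* window held none of the 4 motifs. Of 32851 promoter windows of this length, 72.3% held an E-box, 3.19% a MEF2 site, 1.63% a CArG box and 13.6% a TATA box. For *Mylk3*, 1 of its 2 windows held 1 E-box and the other none of the motifs. No window was available for *Mylk2*, so its start was not searched. The matches are letters in a window and were not tested for binding.

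*Mylk4* (Gene ID 238564, chromosome 13 of GRCm38, 32700824 to 32806773, minus strand) ranged from 912 CPM through a median of 1231 CPM to 1466 CPM in Control muscles. In *FRAIL1* muscles it ranged from 279 CPM through a median of 752 CPM to 1142 CPM. The groups overlapped, because *FRAIL1* muscles 2 and 3, at 1142 and 991 CPM, lay above the lowest Control muscle, that of mouse 6. Within mice, the *FRAIL1* muscle held from 26.9% (mouse 5) to 79.6% (mouse 6) of the Control level. The means were 1215 ± 216 and 762 ± 298 CPM (SD, n = 6 each), a change of -37.3%. The log2 fold change of -0.67 (standard error 0.264, 95% interval -1.25 to -0.099) had an adjusted p of 0.126 by edgeR's quasi-likelihood test. With the mouse as a block it was -0.77, with an adjusted p of 0.0559. The call depended on the method, since the adjusted p was 0.0330 in DESeq2 and 0.0276 in limma voom with quality weights, and its range across the 24 alternatives was 0.00183 to 0.207. Without *FRAIL1* muscle 5 the log2 fold change was -0.50 (adjusted p = 0.101, edgeR).

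*Mylk2* (Gene ID 228785, chromosome 2, 152911281 to 152923065, plus strand), the skeletal muscle kinase, ranged from 749 CPM through a median of 939.6 CPM to 1122 CPM in Control muscles. In *FRAIL1* muscles it ranged from 445 CPM through a median of 789 CPM to 934 CPM. The ranges overlapped, with *FRAIL1* muscles 5, 1 and 4, at 445, 693 and 715 CPM, below the lowest Control muscle. Mice 2, 3 and 6 had the 3 highest values in both groups. The means were 942 ± 142 and 758 ± 181 CPM (SD, n = 6 each), and the *FRAIL1* muscle held from 53.2% (mouse 5) to 94.3% (mouse 3) of its partner's level. The log2 fold change of -0.31 (standard error 0.158, 95% interval -0.65 to 0.024) had an adjusted p of 0.212 by edgeR's quasi-likelihood test, and of 0.0435 with the mouse as a block, where the fold change was -0.34. Without *FRAIL1* muscle 5 and without a block, it was -0.20 (adjusted p = 0.311, edgeR). With both muscles numbered 5 left out and the block kept, it was -0.23, with an adjusted p of 0.00873.

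*Mylk* (Gene ID 107589, chromosome 16, 34745199 to 35002436, plus strand), the smooth muscle and non-muscle kinase, ranged from 27.1 CPM through a median of 33.3 CPM to 37.7 CPM in Control muscles. In *FRAIL1* muscles it ranged from 22.8 CPM through a median of 29.3 CPM to 30.2 CPM. The groups overlapped, and the *FRAIL1* muscle held from 77.1% (mouse 5) to 99.2% (mouse 4) of the Control level. The means were 32.6 ± 3.80 and 27.7 ± 3.06 CPM (SD, n = 6 each). The log2 fold change of -0.24 (standard error 0.0878, 95% interval -0.42 to -0.048) had an adjusted p of 0.103 by edgeR's quasi-likelihood test, and of 0.0242 with the mouse as a block, at a fold change of -0.23. Without *FRAIL1* muscle 5 it was -0.21 (adjusted p = 0.177, edgeR). The gene also encodes telokin, a product without the kinase domain, which counts per gene do not separate. The antisense genes *E130310I04Rik* and *Gm21691* overlap 4.87% and 1.99% of its exons, and the sources used here do not say whether counting used strand.

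*Mylk3* (Gene ID 213435, chromosome 8, 85324928 to 85386340, minus strand), the cardiac kinase, had 0 to 19 counts in a muscle and did not pass the filter on low counts. It measured 0.129 ± 0.0985 CPM in Control and 0.148 ± 0.135 CPM in *FRAIL1* muscles (SD, n = 6 each). It was at 0 in Control muscle 1 and *FRAIL1* muscle 2, where 0 counts allow up to 0.0610 and 0.0517 CPM (3 counts, counting error only). The highest value of each group was that of mouse 6, at 0.285 CPM for Control and 0.373 CPM for *FRAIL1*. The same mouse was highest in both groups for *Myh2*, the heavy chain of type IIa fibers, at 2133 and 1448 CPM where no other muscle was above 553 CPM. It was also highest in both for *Myl2*, the slow and ventricular regulatory light chain, at 1.97 and 5.76 CPM. In a fit without the filter the log2 fold change of *Mylk3* was 0.19 (adjusted p = 0.903, edgeR), and no difference was detectable at this depth.

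**Figure D1:**
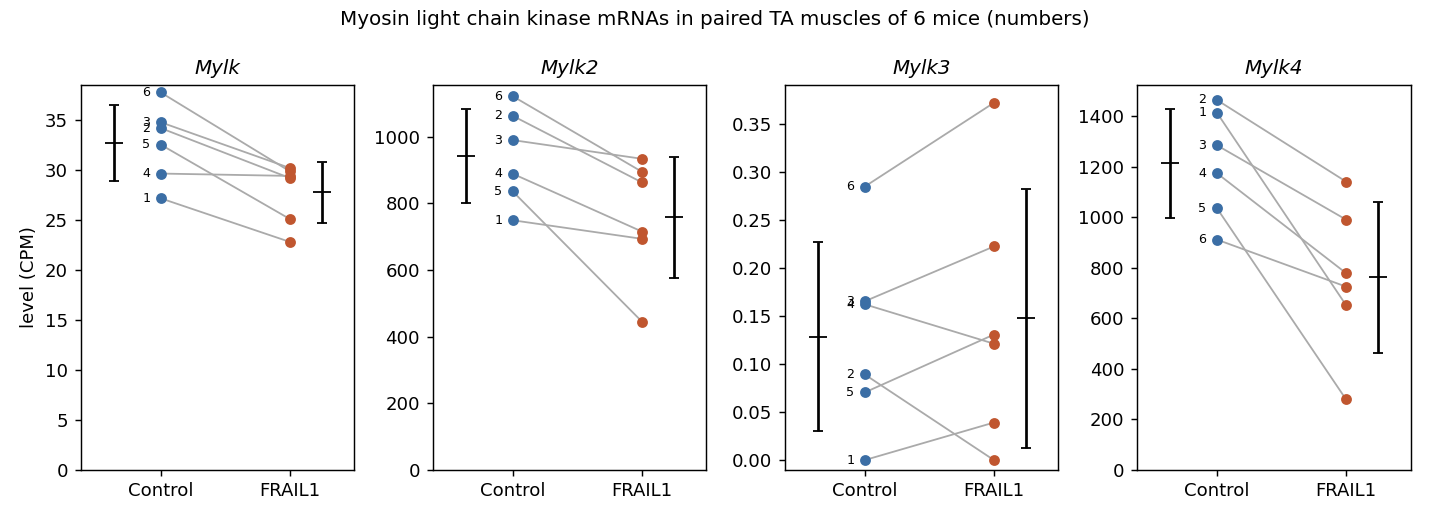
Levels of the 4 myosin light chain kinase mRNAs in CPM (y axis, a separate scale in each panel) in Control and *FRAIL1* muscles, with lines joining the muscles of 1 mouse and means ± SD (n = 6) beside the points. For *Mylk*, *Mylk2* and *Mylk4* all 6 lines fall, with the lowest *FRAIL1* values of *Mylk2* and *Mylk4* in mouse 5, while the lines of *Mylk3* go both ways.

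Per kilobase of exon, the scale on which levels of different genes can be compared, *Mylk2* was highest in Control muscles at 319 ± 48.1 CPM per kb. *Mylk4* followed at 158 ± 28.1, *Mylk* at 2.90 ± 0.337 and *Mylk3* at 0.0301 ± 0.0230 CPM per kb (SD, n = 6). The *FRAIL1* muscles had the same order, with 257 ± 61.5, 99.1 ± 38.7, 2.46 ± 0.271 and 0.0345 ± 0.0315 CPM per kb. On this scale the order held in each of the 12 muscles. Of the summed level of the family, *Mylk2* made up 66.3 ± 5.76% in Control and 72.5 ± 4.79% in *FRAIL1* muscles, *Mylk4* 33.1 ± 5.81% and 26.8 ± 4.97%, and *Mylk* 0.605 ± 0.0597% and 0.733 ± 0.225% (SD, n = 6). With the longest coding transcript in place of all exons, the mean share of *Mylk2* was 58.9% and 65.7%, and *Mylk2* was above *Mylk4* in 11 of 12 muscles, Control muscle 1 being nearly level at 253.9 and 254.1 CPM per kb. The 2 muscles of mouse 6 had nearly the same make-up, with 23.6% *Mylk4* in each. The summed level was 421 to 554 CPM per kb in Control muscles, and 189 (muscle 5) to 448 CPM per kb in *FRAIL1* muscles.

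**Figure D2:**
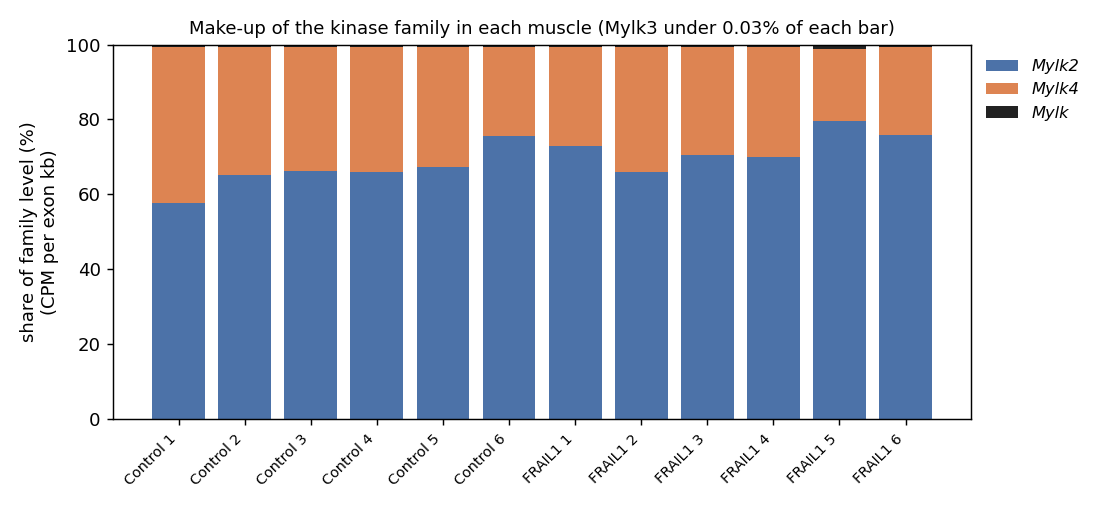
Share of each kinase (y axis, percent of the family's summed CPM per kb of exon) in each of the 12 muscles (x axis). *Mylk2* makes up most of every bar, from 57.7% in Control muscle 1 to 79.6% in *FRAIL1* muscle 5, and *Mylk4* nearly all the rest.

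Whether members differed in their change was tested on the log2 ratio of their counts within a muscle, which library scaling does not affect. The *Mylk2* to *Mylk4* ratio was -0.36 ± 0.390 in Control and 0.075 ± 0.375 in *FRAIL1* muscles (log2, SD, n = 6). It rose within 6 of 6 mice, but mouse 6 was nearly level, at 0.299 and 0.303. The difference of 0.44 did not pass a two-sided exact permutation test over the 924 assignments of muscles to groups (p = 0.0779, adjusted p = 0.216 over 5 ratios, smallest possible p 0.00216). The *Mylk* to *Mylk4* ratio differed by 0.54 (exact permutation p = 0.0866, adjusted 0.216), and by 0.31 without *FRAIL1* muscle 5, and was higher on the *FRAIL1* side in 5 of 6 mice. The *Mylk* to *Mylk2* ratio differed by 0.11 (exact permutation p = 0.571, adjusted 0.571). The permutation does not use the pairing of muscles by mouse. An exact test by mouse flipped the signs of the mouse differences and kept their sizes. In it the *Mylk2* to *Mylk4* ratio reached the smallest p that 6 mice allow (0.03125). This was 0.0781 after adjustment over the 5 ratios, and the adjusted p for *Mylk* to *Mylk4* was 0.104.

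Among 13007 genes with a mean of at least 1 CPM, the pattern of log2 CPM over the 12 muscles most like that of *Mylk4* was that of *Mlf1* (Pearson r = 0.984), then *Xpo7*, a nuclear transport receptor (0.982), and *Sobp* (0.981). For *Mylk2* the nearest were *Ndrg2* (r = 0.973), *Map2k3*, a kinase upstream of p38 (0.961), and *Stxbp6* (0.960). For *Mylk* they were *Kdr*, the main VEGF receptor of endothelium (r = 0.960), Gene ID 100862094, which was not matched to a symbol (0.941), and *Ano1*, a calcium-activated chloride channel (0.937). These genes were picked for their rank and the muscles come in pairs from 6 mice, so the values are descriptions. Adjusted p-values of these 9 genes were 0.0743 (*Kdr*) to 0.233 (*Ndrg2*) in edgeR's quasi-likelihood test. With the mouse as a block 4 of the 9 were called lower, *Kdr* (adjusted p = 0.0264), Gene ID 100862094 (0.00834), *Ano1* (0.0193) and *Mlf1* (0.0139). Over all genes tested that share was 6.62%. The ranking used both groups together, so it favored genes that share the members' difference, and these calls are not a separate result. Among the members, r over the 12 muscles was 0.795 for *Mylk2* and *Mylk4*, 0.793 for *Mylk* and *Mylk2*, and 0.540 for *Mylk* and *Mylk4*. With the mean of each group taken out, r was 0.713, 0.711 and 0.263 in the same order.

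Of the 7 regulatory light chain genes, the substrates of the kinases, 6 were tested. In edgeR 0 were called, 2 had an unadjusted p under 0.05, and 1 passed in DESeq2 and 1 in voom, with a median log2 fold change of 0.051 beside 0.0096 over all genes tested. *Mylpf*, the light chain of fast fibers and substrate of the skeletal muscle kinase, ranged from 7814 CPM through 8328 CPM to 9849 CPM in Control and from 7574 CPM through 8539.9 CPM to 9509 CPM in *FRAIL1* muscles. The ranges nearly coincided, with a log2 fold change of 0.0048 (95% interval -0.17 to 0.18, adjusted p = 0.979, edgeR) whose sign turned with DESeq2 size factors and not with the other 2 scalings. The *Mylk2* to *Mylpf* ratio was lower on the *FRAIL1* side in 6 of 6 mice, with a log2 difference of -0.34 that was not past the threshold (exact permutation p = 0.141, adjusted 0.234). In the exact test that flips signs by mouse its adjusted p was 0.0781, as for *Mylk2* to *Mylk4*.

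*Myl10*, named for precursor lymphocytes, measured 5.42 ± 0.864 and 3.52 ± 1.14 CPM (log2 fold change -0.62, adjusted p = 0.0758, edgeR), with 6 of 6 mice lower. *Myl9*, the smooth muscle light chain, measured 39.6 ± 6.995 and 36.2 ± 3.15 CPM (adjusted p = 0.429, edgeR), and the *Mylk* to *Myl9* ratio differed by -0.12 (exact permutation p = 0.193, adjusted 0.241). The non-muscle chains *Myl12a* and *Myl12b* had log2 fold changes of 0.21 (adjusted p = 0.152) and 0.097 (adjusted p = 0.543, edgeR). *Myl2* was under 2 CPM in every muscle but *FRAIL1* muscle 6, and its log2 fold change of 0.47 (adjusted p = 0.725, edgeR) became -0.995 without that muscle.

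The essential light chains sit beside the regulatory ones and are not substrates of these kinases. Of 5 genes, 2 rose and 0 fell. *Myl4*, the embryonic and atrial chain, rose from 31.3 ± 3.91 to 115 ± 63.96 CPM (log2 fold change 1.88, standard error 0.310, adjusted p = 0.0104, edgeR), and all 6 *FRAIL1* muscles lay above all 6 Control muscles. *Myl6b*, found in slow and non-muscle myosin, rose from 11.2 ± 1.18 to 28.1 ± 17.1 CPM (log2 fold change 1.33, standard error 0.313, adjusted p = 0.0327, edgeR), without overlap of the groups, and was called in 4 of the 12 fits that left out 1 muscle. Such separation of the groups was seen for 4.88% of all genes tested, with 3.12% above and 1.77% below. *Myl1*, the fast chain, had a log2 fold change of -0.033 (adjusted p = 0.803, edgeR).

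Calmodulin, which activates the kinases, is encoded by several genes with the same protein product. *Calm3* ranged from 460.0 CPM through 483 CPM to 576 CPM in Control and from 293 CPM through 399 CPM to 449 CPM in *FRAIL1* muscles, with no overlap. It fell by edgeR (adjusted p = 0.0470; log2 fold change -0.35 ± 0.0977, standard error) and was called in 3 of the 12 fits that left out 1 muscle, with an adjusted p of up to 0.101. *Calm2* measured 154 ± 7.10 and 149 ± 9.66 CPM (adjusted p = 0.572, edgeR). Of 6 genes in this list 4 were tested and 1 fell and 1 rose, the latter being *Calml4*, a brush border relative (1.18 ± 0.297 to 2.38 ± 1.01 CPM, log2 fold change 1.01, adjusted p = 0.0397, edgeR), which was called in 3 of those 12 fits.

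On the opposing side, myosin phosphatase is built from the catalytic subunit *Ppp1cb* and a targeting subunit such as *Ppp1r12a*. Of 10 genes for the phosphatase, its relatives and its inhibitors 9 were tested, 1 rose and 0 fell in edgeR, while 3 had an unadjusted p under 0.05. The median log2 fold change was -0.094. *Ppp1r14c*, an inhibitor of protein phosphatase 1, rose from 119 ± 12.5 to 148 ± 13.3 CPM (log2 fold change 0.31, standard error 0.0786, adjusted p = 0.0336, edgeR) and was called in 4 of the 12 fits that left out 1 muscle. *Ppp1cb* measured 289 ± 29.8 and 236 ± 39.1 CPM (log2 fold change -0.29, adjusted p = 0.0978, edgeR) and its relative *Ppp1cc* 29.3 ± 3.98 and 23.4 ± 2.84 CPM (-0.32, adjusted p = 0.0572). Both were called lower with the mouse as a block (adjusted p = 0.0192 and 0.0107). The catalytic subunit *Ppp1ca* and the targeting subunits *Ppp1r12a*, *Ppp1r12b* and *Ppp1r12c* had log2 fold changes of 0.062, 0.065, -0.094 and 0.021, none past the threshold.

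**Figure D3:**
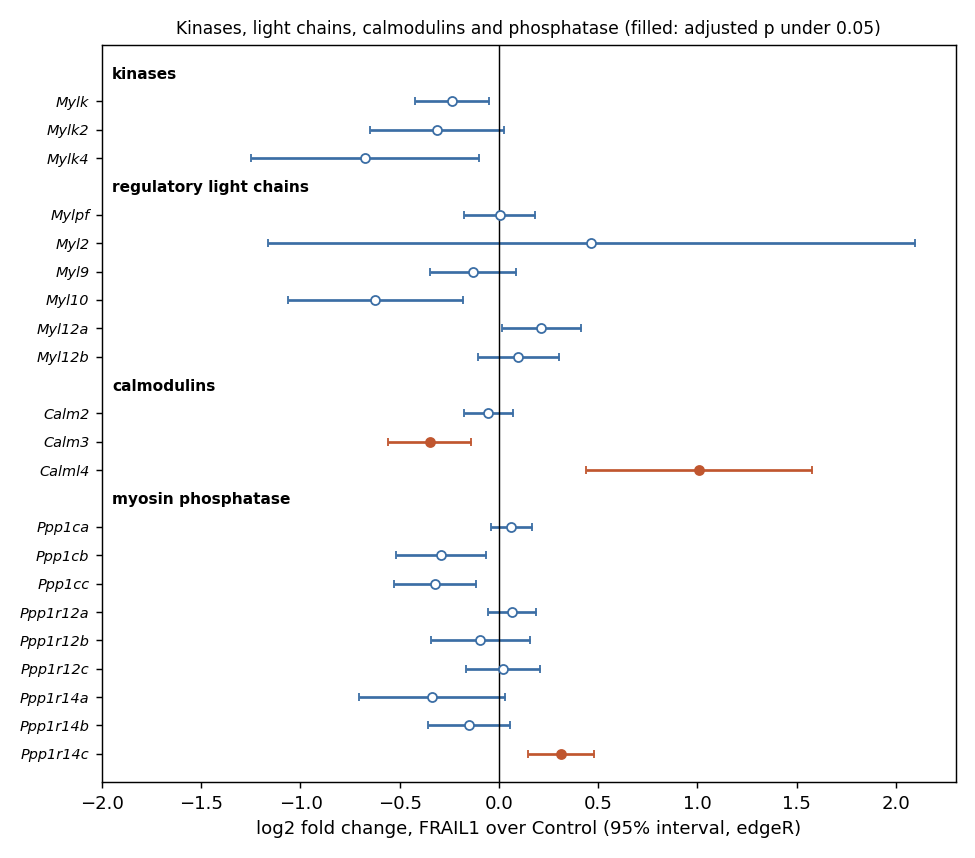
Log2 fold changes of *FRAIL1* over Control muscles (x axis, points with 95% intervals from edgeR, n = 6 and 6) for kinases, regulatory light chains, calmodulin genes and phosphatase genes (y axis). The 3 kinases lie left of 0, at -0.67, -0.31 and -0.24, while *Mylpf* sits at 0.0048.

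Other kinases that act on light chains, or are built like the family, were counted in the same way. Of 16 genes of RhoA signaling and of light chain kinases outside the family, 2 rose and 0 fell: *Rhoc*, a RhoA relative (51.7 ± 2.05 to 77.5 ± 11.1 CPM, log2 fold change 0.58, adjusted p = 0.00209, edgeR), and *Pak1*, a kinase activated by Rac and Cdc42 (34.5 ± 1.95 to 54.8 ± 10.5 CPM, 0.67, adjusted p = 0.00328). Of 13 tested genes of other calmodulin-dependent kinases 1 rose, *Camk2b* (189.7 ± 12.2 to 239 ± 32.3 CPM, log2 fold change 0.34, adjusted p = 0.0297, edgeR), and 1 fell, *Phkg1*, the muscle phosphorylase kinase subunit (503 ± 19.1 to 379 ± 74.9 CPM, -0.41, adjusted p = 0.0469). With the mouse as a block *Camk2d* was also called higher, and *Camk2a* and *Camk2g* lower. Of 6 titin-like and related kinases 1 rose, *Stk17b* (log2 fold change 0.47, adjusted p = 0.0481, and 0.0625 with the block). Of 11 myosin heavy chains 2 rose, the embryonic *Myh3* (log2 fold change 2.16, adjusted p = 0.0124, edgeR) and the perinatal *Myh8* (1.84, adjusted p = 0.0227), and *Myh4* had a log2 fold change of -0.43 (adjusted p = 0.0548, edgeR), which was called with the block (adjusted p = 0.0328) and in 3 of the 12 fits that left out 1 muscle, among them that without *FRAIL1* muscle 5 (adjusted p = 0.0283). Of the 12 fits, 6 called *Camk2b*, 3 *Phkg1* and 3 *Stk17b*.

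Markers of fibers and of other cells also differed between the groups, and in whole muscle fewer cells of a type and less RNA per cell cannot be told apart. Of 13 fast fiber markers 0 were called in edgeR, 6 had an unadjusted p under 0.05, 6 passed in DESeq2 and 6 in voom, and 2 were called lower with the block, *Myh4* and *Actn3*. Their summed level was 175823 to 202582 CPM in Control and 131669 (muscle 5) to 187515 CPM in *FRAIL1* muscles. Of 11 slow fiber markers 5 rose, *Tnnt1*, *Tnni1*, *Tnnc1*, *Atp2a2* and *Casq2*, with log2 fold changes from 0.90 (*Atp2a2*) to 2.27 (*Tnni1*), and the last of the 5 was not called with the block (adjusted p = 0.0727, edgeR). Of the 11 log2 fold changes 9 were above 0. Those of *Myh7b* (-0.55, 6 of 6 mice lower) and *Myl3* (-0.49, 5 of 6 lower) were below 0 and not called. *Myh7* (0.39) and *Myl2* (0.47) were lower in 4 of 6 mice, and with the block turned to -0.13 and -0.19. The slow sum was 315 to 504 CPM in Control and 415 to 1093 CPM in *FRAIL1* muscles. Of 9 markers of satellite cells and regenerating fibers 6 rose, *Myh3*, *Myh8*, *Myog*, *Mymk*, *Mymx* and *Ncam1*, and 9 with the block, and their sum was 183 to 236 CPM and 363 to 1630 CPM. *FRAIL1* muscle 5, lowest in *Mylk2* and *Mylk4*, was highest in the slow and regenerating sums, and *FRAIL1* muscles 2 and 3, highest in *Mylk4*, were lowest in both. Of 10 cardiac markers 4 were tested and 1, *Myl4*, rose. *Myl4* made up most of the cardiac sum (33.1 to 44.2 CPM in Control and 59.5 to 237 CPM in *FRAIL1* muscles), and the atrial heavy chain *Myh6* (-0.54, adjusted p = 0.166) and the cardiac calcium release channel *Ryr2* (-0.43, adjusted p = 0.277, edgeR) had log2 fold changes below 0. The part of these lists in the kinase results was not tested.

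*Mylk* is made outside the fibers as well, so the lists of those cells were set beside it. Of 11 smooth muscle markers 10 were tested and 0 were called in edgeR with or without the block, while 4 had an unadjusted p under 0.05, 1 passed in DESeq2 and 0 in voom. Their sum was 909 to 1112 CPM in Control and 823 to 1041 CPM in *FRAIL1* muscles. Most of it came from 1 gene, *Synpo2* (728 ± 48.8 and 627 ± 68.3 CPM), so the sum says little about the other markers. Of the 10 log2 fold changes 3 were above 0, that of *Acta2* (0.22) among them, while *Myh11* (-0.29) and *Tagln* (-0.26) were below 0. Of 7 pericyte markers 0 were called in edgeR, 2 had an unadjusted p under 0.05, 1 passed in DESeq2 and 1 in voom, and *Rgs5* and *Kcnj8* were called lower with the block. The pericyte sum was 332 to 418 CPM and 286 to 385 CPM, and its largest part was *Abcc9* (182 ± 19.5 and 164 ± 22.8 CPM). Of 10 endothelial markers 2 fell, *Tek*, the angiopoietin receptor (log2 fold change -0.41, adjusted p = 0.0186, edgeR), and *Vwf*, von Willebrand factor (-0.25, adjusted p = 0.0481, called in 2 of the 12 fits that left out 1 muscle), and 0 rose. With the block 4 were called lower, *Kdr* (adjusted p = 0.0264) and *Egfl7* (adjusted p = 0.0355, edgeR) among them, and 6 of the 10 had an unadjusted p under 0.05 without it. The log2 fold change of all 10 was below 0. The endothelial sum was 543 to 646 CPM in Control and 443 to 554 CPM in *FRAIL1* muscles, ranges that overlapped narrowly.

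Of 10 macrophage markers 0 were called in edgeR, 6 had an unadjusted p under 0.05, 5 passed in DESeq2 and 3 in voom, and 5 were higher with the block, with sums of 223 to 353 CPM and 280 to 731 CPM. Of 8 fibroblast markers 0 were called in edgeR with or without the block, 4 had an unadjusted p under 0.05, 3 passed in DESeq2 and 2 in voom. The fibroblast sums, 980 to 1848 CPM and 1960 to 5000 CPM, did not overlap, and muscle 5 was the highest. Most of the sum came from the collagens *Col1a1* (449 ± 96.6 and 927 ± 524 CPM) and *Col3a1* (731 ± 161 and 1293 ± 611 CPM), while *Dcn* (log2 fold change 0.019) and *Pi16* (-0.14) had values near or below 0. The part of these cells in the difference of *Mylk* was not tested.

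**Figure D4:**
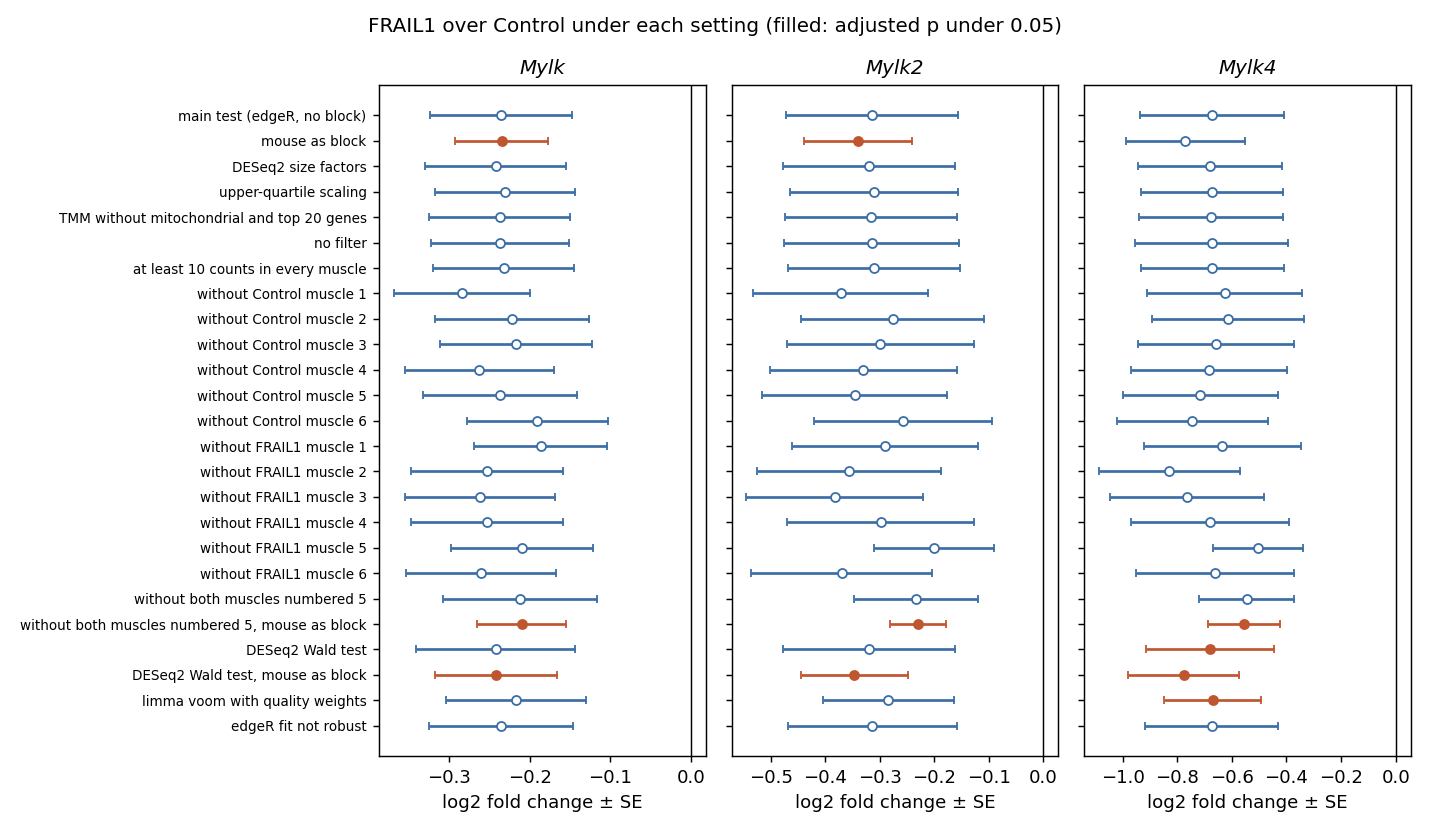
Log2 fold changes ± SE (x axis) of *Mylk*, *Mylk2* and *Mylk4* in the main test and under each of 24 alternatives (y axis), with the points marked whose adjusted p is under 0.05 in that setting. Every point lies left of 0, and 3 of the 24 alternatives pass for *Mylk*, 3 for *Mylk2* and 4 for *Mylk4*.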

How the data were processed

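According to the submitters' processing notes, the authors used Trimmomatic, STAR 2.7.8a, featureCounts 2.0.1 and mm10 on paired-end reads of poly(A) RNA. The deposited values are raw counts per gene and muscle, without normalization. Of 27179 Gene IDs 25275 were matched to RefSeq GRCm38.p6, and the others held 0.280% of the counts. The smallest chi-square per degree of freedom between 2 libraries of a group was 15.4.

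After filterByExpr 15502 genes were left, and TMM factors and the two-sided quasi-likelihood test (robust fit) of edgeR 4.0.16 in R 4.3.3 were applied, with Benjamini-Hochberg adjustment over all genes. Alternatives used DESeq2 1.42.0 and limma 3.58.1. Exon lengths came from GENCODE M21 (GRCm38), and log2 CPM used a prior count of 2. Transcripts of *Mylk2*, *Mylk3* and *Mylk4* had no match to another gene of 98% identity over 100 bases (BLAST 2.17.0). The test was checked on simulated counts.

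The study states that both TAs of each mouse were used, so muscles of 1 number were treated as 1 mouse, which the labels do not state. The correlation of their deviations from the group means lay between 0.0547 (number 5) and 0.282, with a mean of 0.200 against -0.0400 between numbers. The family and the 17 gene lists were chosen with earlier results of these data known. Named genes were the 4 members, genes of the regulatory light chain, calmodulin and phosphatase lists described by role, genes of the other lists past the threshold, and the 3 genes most like each tested member. Other genes were named after their values were seen. Ratios with *Mylk3* were left out of the main test, because it had 0 counts in 2 muscles, which left 5 of 9 planned. Alternatives covered scaling, filters, the block, the tool and leaving out muscles. Results on some genes of the lists are not reported here.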

Additional observations from a re-analysis of the deposited data

Results flagged for a closer look

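Single muscles far from the rest of their group of 6 (gap to the nearest muscle, as a share of the group's range, above Dixon's 95% limit) were found in 15 of 102 groups of named genes, where chance gives about 1 in 20. None was a member of the kinase family. *FRAIL1* muscle 5 accounted for 10 of them, at 61.0 CPM for *Myl6b*, 302 for *Camk2b*, 22.8 for *Stk17b*, 541 for *Myh3*, 876 for *Myh8*, 227 for *Atp2a2*, 324 for *Casq2*, 64.1 for *Myog*, 5.12 for *Mymx* and, below the others, 89.9 for *Mlf1*. The remaining muscles were *FRAIL1* muscle 6 for *Myl2* (5.76 CPM, next 0.821), *FRAIL1* muscle 3 for *Calm2* (167 CPM), Control muscle 5 for *Ppp1cb* (233 CPM, below the others) and *Ppp1r12a* (20.2 CPM), and Control muscle 6 for *Camk2b* (214 CPM).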

How the results depend on the processing

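The log2 fold changes of *Mylk*, *Mylk2* and *Mylk4* were negative under all 24 alternatives. With 1 muscle left out they ranged from -0.28 to -0.19, -0.38 to -0.20 and -0.83 to -0.50, none past the threshold. *Mylk* and *Mylk2* passed it with the mouse as a block, at -0.23 and -0.34, in DESeq2 with the block at -0.24 and -0.35, and with both muscles numbered 5 left out and the block at -0.21 and -0.23. *Mylk4* passed it at -0.56 in the last setting, at -0.68 and -0.78 in DESeq2 without and with the block, and at -0.67 in voom. The number of genes called, 974, was 2186 with the replicate block, 2305 with it and without both muscles numbered 5, 2232 and 2898 in DESeq2 without and with the block, 1836 in voom, and between 364 (without *FRAIL1* muscle 1) and 2110 (without *FRAIL1* muscle 3) with 1 muscle left out, where leaving out any muscle but *FRAIL1* muscle 5 (969) moved it by over 1.5 times. The cause was not tested. Of the ratios none passed the threshold in any setting, and with 0.5 added to the counts the 9 planned ratios, *Mylk3* included, had adjusted p-values of 0.390 to 0.844 (exact permutation). With 1 muscle left out they ranged from -0.012 to 0.15 for *Mylk* to *Mylk2*, which turned negative without *FRAIL1* muscle 5, 0.31 to 0.67 for *Mylk* to *Mylk4*, 0.32 to 0.57 for *Mylk2* to *Mylk4*, -0.43 to -0.19 for *Mylk2* to *Mylpf* and -0.16 to -0.074 for *Mylk* to *Myl9*. Values near 0 changed sign for the Mylpf log2 fold change (-0.00236 with DESeq2 size factors and in DESeq2, -0.00391 in DESeq2 with the block, -0.012 in voom, and -0.0296 to 0.0499 with 1 muscle left out) and for the Ppp1r12c log2 fold change (-0.012 to 0.093 with 1 muscle left out). *Myl2* turned to -0.19 with the block, -0.26 in DESeq2 with the block and -0.995 to 0.78 with 1 muscle left out, the lowest without *FRAIL1* muscle 6. Depth limits *Mylk3*, which only the fit without a filter tested.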
